A study of Mus musculus with 9 samples.

Results

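The B-cell surface receptor and signalling genes Cd79a, Cd79b, Cd72, Cd22, Cd24a, Cd37, Fcrla and Blnk were followed in single cells of mouse bone marrow (BM). The 8 members were chosen by symbol, and all 8 had a row among the 15265 genes of the count tables. Drop-seq, a droplet method that barcodes the RNA of each cell on a bead, had been run on unselected BM cells to ask how haematopoiesis proceeds when POT1a, a telomere-binding protein, is deleted in the marrow stroma. In all, 4 libraries came from NG2-cre/Pot1a fl/fl mice and 5 from NG2-cre/Pot1a wt/wt mice, all of the C57BL/6 strain and aged 2 to 3 weeks. Both groups carried the NG2-cre allele, in which the regulatory region of Cspg4 drives Cre in pericytes and mesenchymal stromal cells, so the B cells themselves were not the targeted population. Which mouse gave which library is not labelled, and the mice stated per group are fewer than the libraries, so some libraries may share a mouse and p-values cover only how libraries vary.

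The B-cell receptor is an immunoglobulin that signals through CD79A and CD79B, a pair of membrane proteins whose cytoplasmic motifs are phosphorylated when antigen binds. BLNK is the adaptor that links the receptor's kinases to phospholipase C gamma and calcium release, while CD22 and CD72 are inhibitory co-receptors that recruit the phosphatase SHP-1. CD24A is a lipid-anchored glycoprotein of immature B cells that red cell precursors also carry, CD37 is a tetraspanin of leukocytes, and FCRLA is an Fc receptor-like protein that stays inside B cells. In the marrow, components of the receptor appear stepwise as pro-B cells become pre-B and immature B cells.

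The 8 genes lie on 6 chromosomes (GRCm38, which is mm10) and all are protein-coding. Cd79a (chr7:24897381-24902197, plus strand), Cd22 (chr7:30865402-30880342, minus strand) and Cd37 (chr7:45233632-45239115, minus strand) share chromosome 7. Cd79b lies at chr11:106311341-106314762, Cd72 at chr4:43446462-43454628, Fcrla at chr1:170917576-170927583 and Blnk at chr19:40928927-40994535, each on the minus strand, and Cd24a lies at chr10:43578284-43584265 on the plus strand. RefSeq promoters (GRCm38.p6, 250 bases before to 50 bases after the gene's start) were matched for 6 members. Stretches of 3 of them are shown because they set genes counted mostly in B-lineage-like cells (Cd79a and Blnk) against a gene that granulocyte-like and monocyte/macrophage-like cells also had (Cd37). For Cd79a the stretch before the gene's GENCODE start is given, and for Blnk and Cd37 a site of 30 bases, since these windows hold bases that GENCODE annotates as untranslated region. Each runs 5′ to 3′ along the gene, and capitals mark the E-box CAGGTG, bound by E proteins such as E2A, or the octamer ATGCAAAT, in either orientation.
Cd79a, chr7:24897247-24897380, plus strand: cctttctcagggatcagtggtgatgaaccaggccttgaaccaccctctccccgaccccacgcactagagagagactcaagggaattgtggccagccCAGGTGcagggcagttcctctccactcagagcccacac
Blnk, chr19:40994333-40994362, minus strand: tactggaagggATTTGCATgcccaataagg
Cd37, chr7:45238997-45239026, minus strand: ctgagctatggaCACCTGcgaggaacccat

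The E-box CAGGTG (reverse complement CACCTG) was found in the promoters of 5 of the 6 matched members, Cd79a, Cd22, Cd37, Fcrla and Blnk, against 20.2% of all 32851 promoters of the same length. Its first base lay 154 bases before the RefSeq start of Cd79a, 160 before that of Blnk and 175 before that of Cd37. The gene ends given above are those of GENCODE, by which it lay 38 bases before the start of Cd79a but 154 bases after that of Blnk, in the untranslated region, and 101 bases after that of Cd37, in coding sequence. The octamer was in the promoter of Blnk alone, 130 bases before its RefSeq start, against 1.74% of all promoters. The palindrome of EBF1, a factor of early B-cell commitment, was in that of Cd22 alone, against 0.904% of all promoters. The letters GAGGAA of the PU box (reverse complement TTCCTC) occurred in Cd79a, Cd72, Cd37 and Fcrla, against 28.3% of all promoters. None of these motifs overlapped another in the sequences shown.

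Each library held 100 barcodes, and 899 of the 900 passed the filters on depth and mitochondrial share. Library totals ran between 119459 and 465277 counts in Pot1a fl/fl marrow and between 143345 and 337900 in Pot1a wt/wt marrow, and the shallowest were Pot1a fl/fl 3 and Pot1a wt/wt 5. Pot1a itself had 1 to 15 counts per Pot1a fl/fl library and 2 to 10 per Pot1a wt/wt library. Since mesenchymal-like cells numbered 2 to 6 per Pot1a fl/fl library and 0 to 4 per Pot1a wt/wt library, these counts do not check the deletion. The libraries Pot1a wt/wt 2 and 3 shared 19 barcodes whose counts correlated at 0.961 to 0.999, so these cells appear to be held by both, and results are given with both libraries and with them taken as 1. This was the only 1 of 36 pairs of libraries to share barcodes. By Xist and Y-linked counts, 6 libraries came from female and 3 from male mice.

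Cells were clustered without the 8 members and named from marker lists. A pair of clusters with 226 cells was B-lineage-like, with 15 and 4 B-lineage markers among the 50 leading genes. The smaller one (73 cells) was led by Bfsp2, Igll1, Lef1, Vpreb2 and Vpreb1, held 5 pro-B and 0 pre-B markers among its leading genes, and is called the pro-B-like cluster. Compared with the other B-lineage-like cells alone, it held 1 pro-B marker, Vpreb2, and its leading genes were growth genes such as Ccnd2 and Mif. Its cells were also deeper (median 3533 counts). The larger one (153 cells, median 1934 counts) had Igkc, the kappa light chain, with Il7r and Vpreb3 among its leading genes. It held 4 pro-B markers (Il7r, Akap12, Cecr2 and Sox4) and 2 pre-B markers, or 1 and 2 against the other B-lineage-like cells alone. It was given no stage name and is called the Igkc cluster. B-lineage-like cells made up 24, 16, 20 and 35% of the Pot1a fl/fl libraries 1 to 4, against 30, 22, 27, 27.3 and 25% of the Pot1a wt/wt libraries 1 to 5. The mean share of 23.8% ± 8.18 in Pot1a fl/fl marrow was lower than the 26.3% ± 2.97 in Pot1a wt/wt marrow (SD, n = 4 and 5) by no more than libraries of a group differed among themselves (exact permutation, two-sided p = 0.548, where the smallest possible p is 0.0079). The difference of -2.50 percentage points rested on single libraries, since it was 0.0788 points without Pot1a fl/fl 2 and -6.25 points without Pot1a fl/fl 4 (exact permutation p = 0.0536).

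Fcrla, Blnk, Cd72, Cd79a and Cd22 were counted mostly in B-lineage-like cells. With all libraries pooled, the 226 cells held 90.0% of the Fcrla counts, 90.0% of those of Blnk, 88.6% of those of Cd72 and of Cd79a, and 82.6% of those of Cd22. The lowest share in a single library was 62.5% for Fcrla, 42.9% for Blnk, 69.2% for Cd72, 78.6% for Cd79a and 37.5% for Cd22. The level in B-lineage-like cells, as counts-per-million (CPM) of the pooled cells, was 29.6-fold that of all other cells for Fcrla, 29.5-fold for Blnk, 25.6-fold for Cd72, 25.5-fold for Cd79a and 15.6-fold for Cd22. Each was higher in B-lineage-like cells in 9 of 9 libraries. The members played no part in the clustering, but the cells were sorted by other B-cell genes, so these levels are a description and were not tested.

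Cd79b was less confined than its partner Cd79a. B-lineage-like cells held 71.2% of its counts, at a pooled 393 CPM, against 48.4 CPM in all other cells, or 8.12-fold. Of the Cd79a and Cd79b counts summed, Cd79b made up 61.9% in B-lineage-like cells (95% exact binomial interval 56.8 to 66.7%), against 83.6% outside the B lineage (97 counts beside 19 of Cd79a, interval 75.6 to 89.8%). The intervals, which cover counting error only, did not overlap. Counts of Cd79b outside the B lineage were spread over erythroid-like cells (48.6 CPM), granulocyte-like cells (43.4 CPM) and an unnamed cluster led by Mt2, Fam132a and Car1 (59.5 CPM), while the 65 monocyte/macrophage-like cells held 1 count. In the 22 mesenchymal/osteolineage-like cells, 8 counts of Cd79b (178 CPM) were found in 4 cells and 6 of Blnk (134 CPM) in 3 cells. That cluster may be mixed, since its leading genes held 5 markers of its class and 4 of the next class.

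Cd24a and Cd37 were shared with other lineages. Cd24a had the most counts of the members and reached 2465 CPM in erythroid-like cells, above the 1677 CPM of B-lineage-like cells, 529 CPM of the unnamed cluster, 381 CPM of granulocyte-like cells and 119 CPM of monocyte/macrophage-like cells. Over the 9 libraries it averaged 1765 ± 332 CPM in B-lineage-like and 2507 ± 409 CPM in erythroid-like cells (SD). The ranges of these classes, 1058 to 2107 CPM and 1902 to 3140 CPM, overlapped, while the unnamed cluster, next in order, reached at most 969.7 CPM. B-lineage-like cells held only 37.8% of all Cd24a counts and erythroid-like cells 39.3%. Cd37 averaged 381 ± 161 CPM in B-lineage-like cells, 218 ± 155 CPM in monocyte/macrophage-like cells and 164 ± 39.9 CPM in granulocyte-like cells, and these ranges overlapped. In erythroid-like cells Cd37 averaged 31.8 ± 28.4 CPM.

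**Figure D1:**
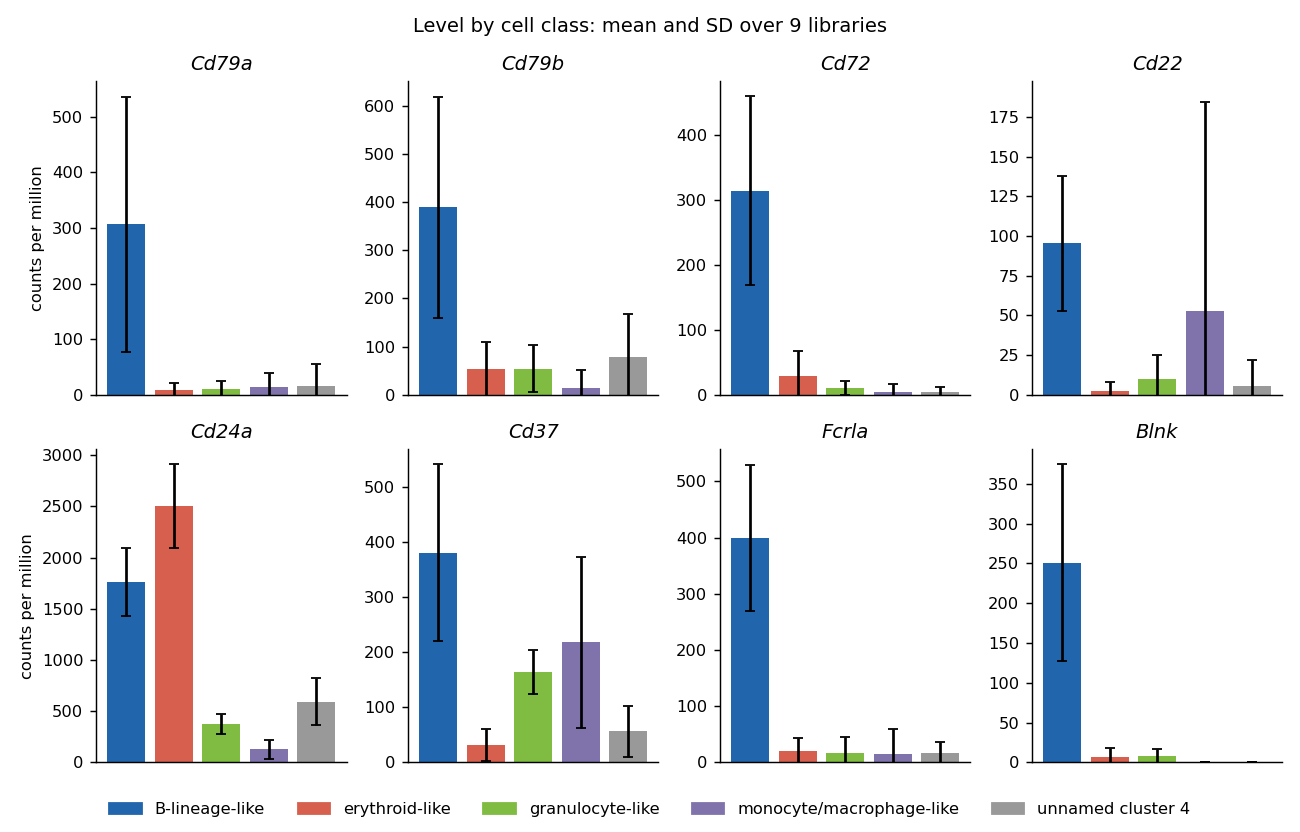
Level of each member (CPM, linear axes from 0) in 5 cell classes, as the mean and SD over 9 libraries. Cd79a, Cd72, Fcrla and Blnk stand out in the B-lineage-like bar, Cd24a is highest in erythroid-like cells (2507 CPM), and Cd37 is also found in monocyte/macrophage-like and granulocyte-like cells; the Cd22 bar of monocyte/macrophage-like cells rests on 4 counts.

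The share of cells with a count gave the same picture at a common depth. After each cell was thinned to 800 counts (209 of the 226 B-lineage-like, 305 of the 325 granulocyte-like and 157 of the 167 erythroid-like cells were deep enough), Fcrla was seen in 28.2% of B-lineage-like, 1.64% of granulocyte-like and 1.27% of erythroid-like cells. Unthinned, these shares were 46.9, 3.38 and 4.79%, at median depths of 2123, 2275 and 2344 counts. Cd79b was seen in 24.4% of thinned B-lineage-like cells, 3.28% of granulocyte-like and 5.73% of erythroid-like cells. Thinned shares in B-lineage-like cells were 23.4% for Cd72, 22.5% for Cd79a, 22% for Cd37, 18.7% for Blnk and 7.18% for Cd22, while Cd24a reached 70.3%, below its 83.4% in erythroid-like cells. The shares of Fcrla, Cd72, Cd79a, Blnk and Cd22 in granulocyte-like and erythroid-like cells were at most 1.64%, and their source was not tested.

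Most B-lineage-like cells carried several members. Of the 6 genes other than Cd24a and Cd37, at least 1 was counted in 91.6% of B-lineage-like cells, at least 2 in 73.0% and at least 3 in 48.7%. Outside the B lineage the same shares were 19.0, 4.16 and 0.594%. Up to 5 of the 6 were counted in a granulocyte-like cell, and whether such cells hold RNA of B cells was not tested. After thinning to 800 counts, at least 2 were counted in 35.9% of B-lineage-like cells and 0.634% of the others.

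Most members also followed each other across cell types. Over 46 sums of cells by library and class (at least 5 cells each), log2(CPM + 50) of Fcrla and Cd72 correlated at 0.92, Fcrla and Blnk at 0.88, Cd72 and Blnk at 0.88, and Cd79a and Blnk at 0.88. Cd24a and Cd37 had the lowest correlation of the 28 pairs, at -0.17. These points share libraries and depth, and the values are descriptive. Among 2251 genes with at least 200 counts, those most like Fcrla were Pax5, the B-cell commitment factor (0.93), Cd72 (0.92) and Sdc4 (0.89). Blnk was most like Sdc4 (0.94), Igll1, the surrogate light chain (0.93), and Pax5 (0.92). Cd79a was most like Pou2af1, a B-cell coactivator of octamer factors (0.92), Igll1 (0.89) and Vpreb1 (0.88), and Cd72 was most like Fcrla, Sdc4 (0.88) and Ebf1 (0.87). Cd79b followed Sdc4 (0.82), Igll1 (0.80) and Cplx2 (0.79), and Cd22 followed Pax5 (0.76), Fcrla (0.76) and Il7r (0.72). The neighbours of the other members were of another kind. Cd24a was most like RP23-45G16.5 (0.80), Slc16a1 (0.77) and Tfrc, the transferrin receptor of red cell precursors (0.76), and Cd37 was most like Clic1 (0.78), H2-D1, a class I histocompatibility gene (0.77), and Stk4 (0.77).

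Within the B lineage, Fcrla, Cd72 and Cd79b had the largest differences between the clusters, all towards the Igkc cluster. Pooled over libraries, Fcrla was at 619 CPM in the Igkc cluster and 137 CPM in the pro-B-like cluster (2.18 on the log2 scale), Cd72 at 468 and 140 CPM (1.74), and Cd79b at 546 and 209 CPM (1.39). Fcrla and Cd79b were higher in the Igkc cluster in 9 of 9 libraries, and Cd72 in 8 of 9. Blnk was at 291 CPM in the Igkc cluster and 169 CPM in the pro-B-like cluster and was higher in 9 of 9 libraries. In Pot1a fl/fl 3, Cd79b had 1 count and Blnk 3 counts in each cluster, so their direction there rested on the cluster totals alone. For Cd79a the pooled levels were closer, 273 and 205 CPM, though 8 of 9 libraries had the higher value in the Igkc cluster. Cd37 (423 and 284 CPM) and Cd24a (1799 and 1532 CPM) were higher there in 7 of 9 libraries each. Cd22 ran the other way, with 75.1 CPM in the Igkc cluster and 115 CPM in the pro-B-like cluster, on 25 and 32 counts, and was lower in the Igkc cluster in 7 of 9 libraries.

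These differences between clusters were not tested, since the clusters were made from the same cells. The direction of the pooled levels held for all 8 members at resolutions 0.6 and 1.5 and with the members left in the clustering. The Cd22 difference shrank to -0.19 on the log2 scale at resolution 0.6 and to -0.15 with the members left in. In each of these Cd22 was lower in the Igkc cluster in only 5 of 9 libraries. The Blnk difference was 1.32 at resolution 0.6, with 9 of 9 libraries higher in the Igkc cluster. It was 0.39 at resolution 1.5 and 0.37 with the members left in, with 7 of 9 libraries each. Cd79a was higher there in 6 of 9 libraries at resolution 1.5, and Cd79b in 8 of 9 at resolution 0.6. After thinning to 800 counts, Fcrla was seen in 38.4% of cells of the Igkc cluster and 8.45% of those of the pro-B-like cluster, Cd79b in 31.9 and 9.86%, and Cd72 in 29.7 and 11.3%, while Cd79a was seen in 23.2 and 21.1%, and Cd22 in 6.52 and 8.45%. For orientation, Igkc was at 1129 CPM in the Igkc cluster and 122 CPM in the pro-B-like cluster, Igll1 at 444 and 1061 CPM, and the proliferation gene Mki67 at 2684 and 1086 CPM. Dntt, of the pro-B list, was at 108 and 101 CPM on 36 and 28 counts, so it did not set the clusters apart.

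**Figure D2:**
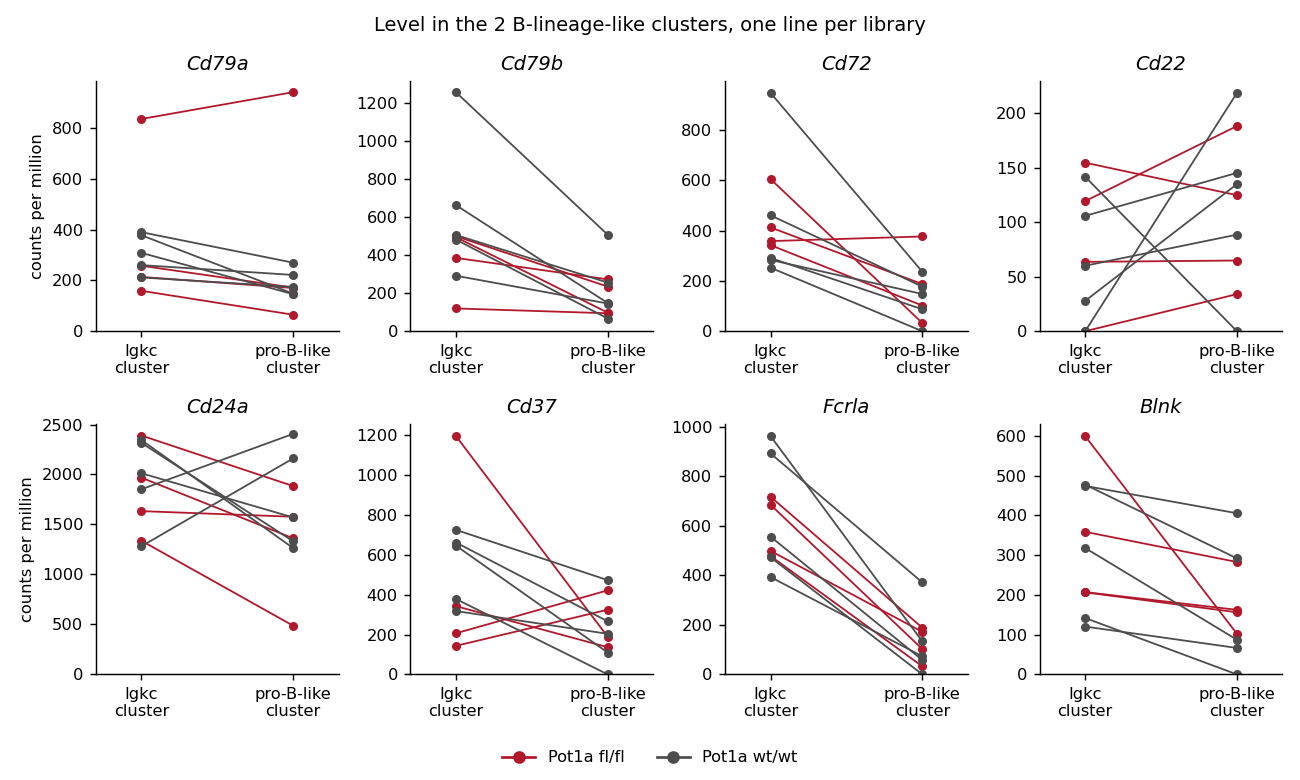
Level of each member (CPM) in the Igkc cluster and in the pro-B-like cluster, with 1 line per library, Pot1a fl/fl in red and Pot1a wt/wt in grey. Lines of Fcrla, Cd79b and Blnk run down towards the pro-B-like cluster in 9 of 9 libraries, while those of Cd22 cross and Pot1a fl/fl 3 is at the top of the Cd79a panel.

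The genotype comparison asked whether the members differed between Pot1a fl/fl and Pot1a wt/wt marrow. No member passed the test (edgeR's quasi-likelihood test on counts summed per library, Benjamini-Hochberg adjusted p below 0.05), in whole marrow or in B-lineage-like cells. A p that misses the threshold does not show equal levels, so intervals are given. In whole marrow 7 of the 8 members passed the filter on low counts, 0 of the 7 were called (0 by DESeq2 as well), and 0.0658% of the 4559 genes tested were called (364 had an unadjusted p below 0.05). In B-lineage-like cells the same 7 were tested, 0 were called, and 0% of the 1369 genes tested were called (40 at an unadjusted p below 0.05, 0 by DESeq2). Cd22 did not pass the filter in either. For each of the 8 members the CPM ranges of the genotypes overlapped in whole marrow, where 1.07% of the genes tested lay wholly lower and 1.27% wholly higher in Pot1a fl/fl. They also overlapped in B-lineage-like cells, where these shares were 0.804 and 0.584%. In sums over whole marrow, fewer cells of a type and less RNA per cell cannot be told apart.

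Among the receptor subunits, Cd79b had the estimate furthest from 0 of the 7 members tested. Whole-marrow levels were 88.1, 85.4, 33.5 and 151 CPM in the Pot1a fl/fl libraries 1 to 4, against 294, 114, 82.4, 109.9 and 258 CPM in the Pot1a wt/wt libraries 1 to 5. The high values were those of Pot1a wt/wt 1 and 5, and the other 3 Pot1a wt/wt libraries lay within the Pot1a fl/fl range. Its log2 fold change was -0.79 ± 0.40 (SE, 95% interval -1.64 to 0.05), with an edgeR adjusted p of 0.639. In B-lineage-like cells, the levels were 363, 322, 105 and 360 CPM in Pot1a fl/fl and 916, 396, 222, 284 and 537 CPM in Pot1a wt/wt, with a log2 fold change of -0.57 ± 0.40 (edgeR adjusted p = 0.986). Without Pot1a wt/wt 1, the library with the highest level, this estimate came to -0.08, and the whole-marrow one to -0.39.

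For Cd79a the same libraries gave 25.8, 42.7, 142 and 72.9 CPM in Pot1a fl/fl marrow, against 111, 55.5, 48.8, 77.2 and 76.7 CPM in Pot1a wt/wt marrow. The highest and the lowest values were both in Pot1a fl/fl libraries. The log2 fold change was -0.21 ± 0.43 in whole marrow (edgeR adjusted p = 0.934) and 0.04 ± 0.48 in B-lineage-like cells (edgeR adjusted p = 0.998). Without Pot1a fl/fl 3 the estimates were -0.64 and -0.58.

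Pot1a fl/fl 3 was the only library with more Cd79a than Cd79b counts. It had 17 counts of Cd79a, all in B-lineage-like cells, and 4 of Cd79b. Cd79b thus made up 19.0% of the pair (95% exact binomial interval 5.45 to 41.9%), against 66.7 to 77.4% in the other Pot1a fl/fl libraries and 58.7 to 77.1% in Pot1a wt/wt libraries. Pooled over the other 8 libraries, the share was 68.9% (interval 64.6 to 73.0%). The 17 counts of Cd79a came from 13 of its 20 B-lineage-like cells, with at most 4 in a cell, and 2 of the 20 cells had a count of Cd79b. In B-lineage-like cells Cd79a reached 895 CPM in this library, against 128 to 213 CPM in the other Pot1a fl/fl libraries and 194 to 336 CPM in Pot1a wt/wt. Pot1a fl/fl 3 was also the shallowest library, and Pot1a wt/wt 5, the next in depth, had a Cd79b share of 77.1%. The part of depth in this difference was not tested, and the intervals cover counting error only.

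**Figure D3:**
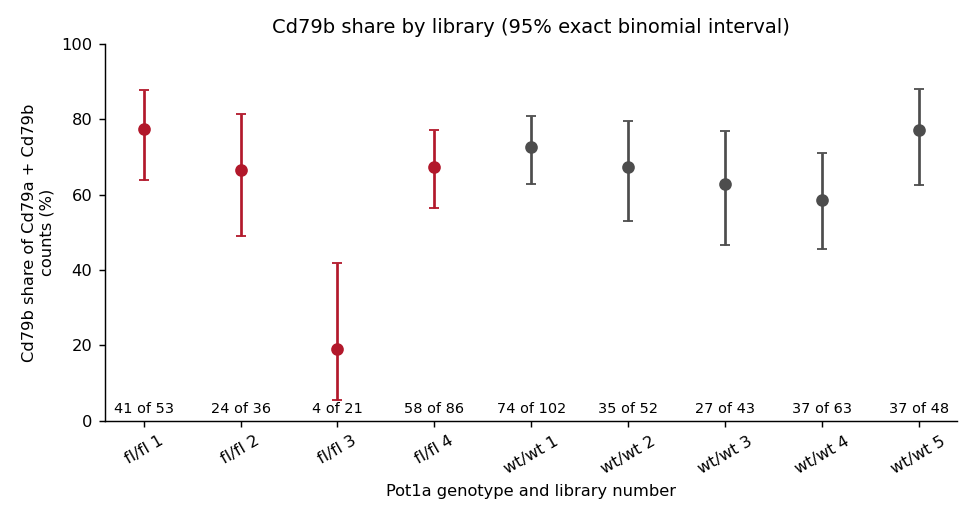
Share of Cd79b in the summed Cd79a and Cd79b counts of each library (percent), Pot1a fl/fl in red and Pot1a wt/wt in grey, with 95% exact binomial intervals and the counts under each point. Pot1a fl/fl 3 sits at 19.0% (4 of 21 counts), and the other 8 libraries lie between 58.7 and 77.4%.

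Blnk, the adaptor, did not separate the genotypes. Its levels were 43.0, 60.5, 50.2 and 70.3 CPM in Pot1a fl/fl marrow and 127, 84.8, 45.8, 29.7 and 48.8 CPM in Pot1a wt/wt marrow, so the wider spread was that of Pot1a wt/wt. The log2 fold change was -0.22 ± 0.39 (edgeR adjusted p = 0.917), and -0.14 ± 0.44 in B-lineage-like cells (edgeR adjusted p = 0.996).

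Of the inhibitory co-receptors, Cd72 had 94.6, 42.7, 75.3 and 107 CPM in Pot1a fl/fl marrow and 171, 42.4, 54.9, 95.1 and 55.8 CPM in Pot1a wt/wt marrow. The lowest values were alike, 42.7 CPM in Pot1a fl/fl and 42.4 CPM in Pot1a wt/wt, and the highest library was Pot1a wt/wt 1. Its log2 fold change was -0.03 ± 0.39 (95% interval -0.86 to 0.80, edgeR adjusted p = 0.996), and 0.01 ± 0.39 in B-lineage-like cells (edgeR adjusted p = 0.998). Cd22, an inhibitory co-receptor with the fewest counts of the members, had 6, 1, 5 and 18 counts in Pot1a fl/fl and 7, 7, 10, 7 and 8 counts in Pot1a wt/wt libraries. Its mean level was 26.3 ± 21.3 CPM in Pot1a fl/fl and 31.6 ± 14.1 CPM in Pot1a wt/wt marrow (SD, two-sided exact permutation p = 0.675, n = 4 and 5). In B-lineage-like cells these means were 95.1 ± 65.0 and 95.5 ± 21.5 CPM (two-sided exact permutation p = 1), and the spread among Pot1a fl/fl libraries, 19.0 to 158 CPM, was the wider.

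Cd24a had the tightest estimate. Whole-marrow levels were 780.2, 754, 954 and 1081 CPM in Pot1a fl/fl, against 1427, 1086, 1016, 1075 and 1521 CPM in Pot1a wt/wt. Only Pot1a fl/fl 4 reached the Pot1a wt/wt range, and the group means were 892 ± 154 and 1225 ± 231 CPM (SD, n = 4 and 5). The log2 fold change was -0.42 ± 0.22 (95% interval -0.87 to 0.04, edgeR adjusted p = 0.645), and the two-sided exact permutation p of the CPM difference was 0.0556. Erythroid-like cells, which hold the most Cd24a, numbered 8 to 18 per Pot1a fl/fl library and 21 to 24 per Pot1a wt/wt library. Within erythroid-like cells the Cd24a level was 2470 ± 113 CPM in Pot1a fl/fl and 2536 ± 568 CPM in Pot1a wt/wt (SD, n = 4 and 5). The part of the number of erythroid-like cells in the whole-marrow estimate was not tested. In B-lineage-like cells Cd24a stood at 1600 ± 429 CPM in Pot1a fl/fl and 1897 ± 182 CPM in Pot1a wt/wt, a log2 fold change of -0.29 ± 0.22 (edgeR adjusted p = 0.986) that came to -0.14 without Pot1a fl/fl 1.

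Cd37 had nearly equal means in whole marrow and an estimate below 0 in B-lineage-like cells. Whole-marrow levels were 129, 167, 234 and 177 CPM in Pot1a fl/fl and 274, 144, 109.9, 205 and 153 CPM in Pot1a wt/wt, with means of 177 ± 43.6 and 177 ± 64.1 CPM. The log2 fold change was -0.00 ± 0.28 (95% interval -0.60 to 0.59, edgeR adjusted p = 0.9998). In B-lineage-like cells the levels were 203, 227, 632 and 319 CPM in Pot1a fl/fl, against 611, 412, 263, 474 and 287 CPM in Pot1a wt/wt, with a log2 fold change of -0.48 ± 0.35 (edgeR adjusted p = 0.986). That estimate was -0.28 without Pot1a fl/fl 1, -0.31 without Pot1a wt/wt 1 and -0.74 without Pot1a fl/fl 3. B-lineage-like cells held 39.4% ± 14.0 of the Cd37 counts in Pot1a fl/fl libraries and 54.3% ± 10.95 in Pot1a wt/wt libraries (SD), alongside 34 to 59 granulocyte-like cells per Pot1a fl/fl library and 24 to 36 per Pot1a wt/wt library.

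Fcrla had 73.1, 74.7, 92.1 and 104 CPM in Pot1a fl/fl marrow, against 191, 58.7, 82.4, 166 and 112 CPM in Pot1a wt/wt marrow. The Pot1a fl/fl libraries lay within the Pot1a wt/wt range. Its log2 fold change was -0.48 ± 0.34 in whole marrow (95% interval -1.19 to 0.23, edgeR adjusted p = 0.766) and -0.35 ± 0.32 in B-lineage-like cells (edgeR adjusted p = 0.986). Without Pot1a wt/wt 1 these estimates were -0.22 and -0.14.

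**Figure D4:**
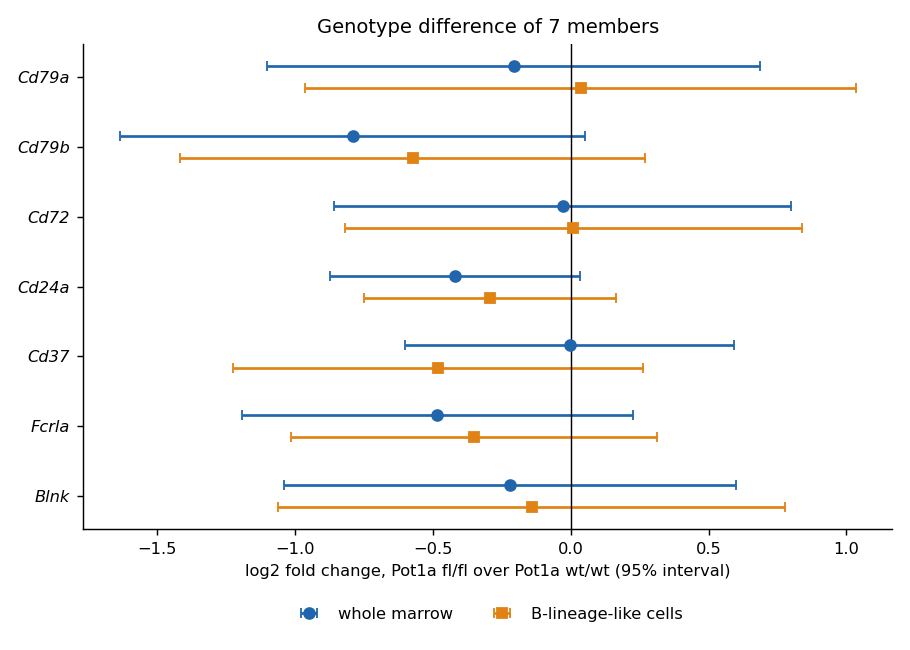
Log2 fold change of 7 members, Pot1a fl/fl over Pot1a wt/wt, from edgeR fits on whole marrow (circles) and on B-lineage-like cells (squares), with 95% intervals. Every interval spans 0, and the widest distances from 0 are those of Cd79b, -0.79 and -0.57; Cd22 did not pass the filter on low counts.

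**Figure D5:**
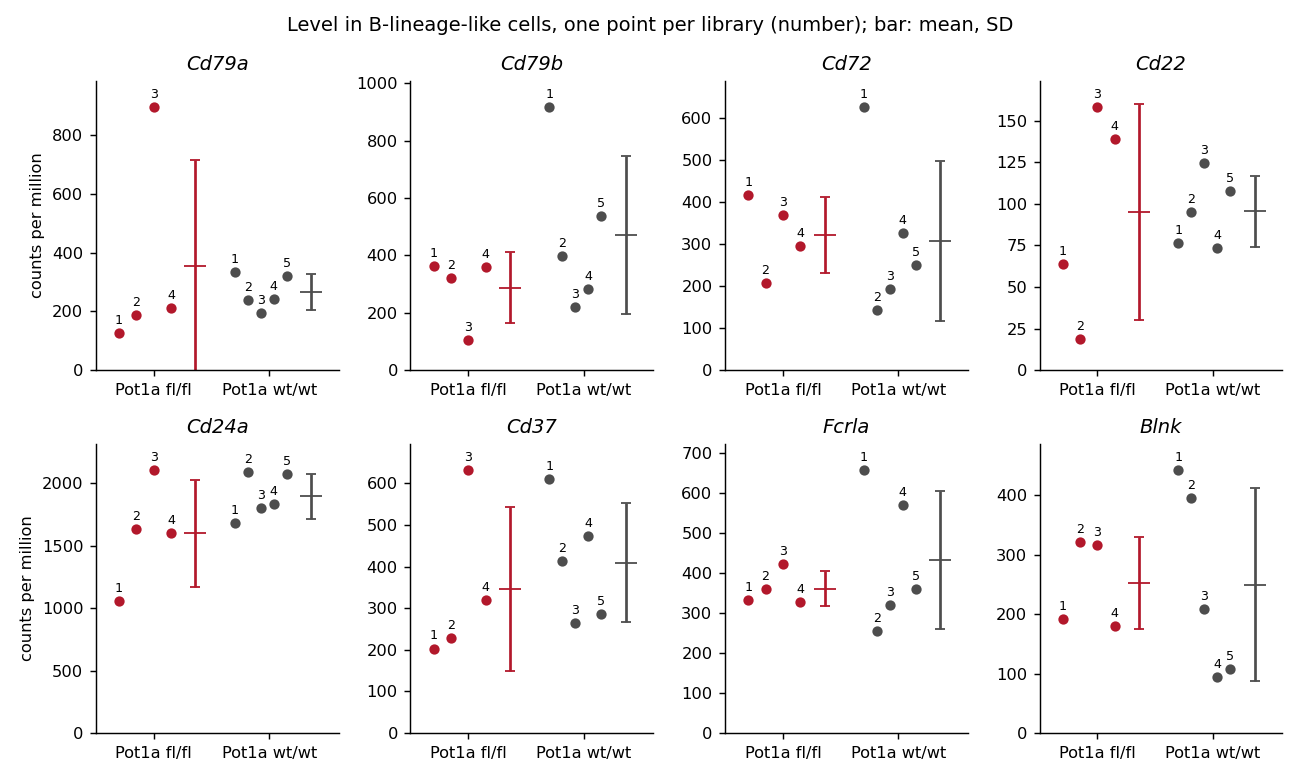
Level of each member in B-lineage-like cells (CPM), with 1 numbered point per library and the mean and SD at the right of each group (4 Pot1a fl/fl and 5 Pot1a wt/wt libraries). The groups overlap for all 8 members, and Pot1a fl/fl 3 is the highest library for Cd79a (895 CPM) and the lowest for Cd79b (105 CPM).

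Markers of other cells were also counted in the B-lineage-like cells. The summed share of the granulocyte list (19 of 20 genes with counts, Chil3 at 0) was 0.617 to 1.63% in Pot1a fl/fl and 0.132 to 1.89% in Pot1a wt/wt libraries. For the erythroid list (20 of 20 genes) the ranges were 0.370 to 0.695% in Pot1a fl/fl and 0.227 to 3.18% in Pot1a wt/wt libraries. Of the T/NK list 7 of 12 genes had counts, with Cd3e, Cd3g, Cd4, Cd8a and Il2rb at 0. The monocyte/macrophage list (16 of 17 genes, C1qc at 0) took 0.0475 to 0.0790% in Pot1a fl/fl and 0.0333 to 0.0716% in Pot1a wt/wt libraries. In whole marrow it took 0.188 to 0.253% in Pot1a fl/fl and 0.115 to 0.167% in Pot1a wt/wt, without overlap, as for 1.27% of single genes tested in that direction. The whole-marrow ranges of the granulocyte, erythroid and T/NK lists overlapped. The part of these markers in the members' levels was not tested.

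Genotype differences were next read within each cluster. In the pro-B-like cluster, which had 5 to 13 cells per library, Cd24a was the only member to pass the filter. Its level was 1328 ± 600.0 CPM in Pot1a fl/fl and 1747 ± 511 CPM in Pot1a wt/wt (SD, n = 4 and 5), a log2 fold change of -0.50 ± 0.33 (edgeR adjusted p = 0.996, and -0.22 without Pot1a fl/fl 1), where 0% of 572 genes tested were called (20 at an unadjusted p below 0.05, 0 by DESeq2). The other 7 members had 13 to 43 counts each in the Pot1a fl/fl and 19 to 36 in the Pot1a wt/wt cells of that cluster, and their ranges overlapped. There 0.874% of the genes tested lay wholly lower and 0.524% wholly higher in Pot1a fl/fl, so overlap was the rule for all genes. In the Igkc cluster, which had 9 to 23 cells per library, 7 members were tested, 0 were called, and 0% of 753 genes tested were called (16 at an unadjusted p below 0.05, 0 by DESeq2). The estimates furthest from 0 were those of Cd37, -0.80 ± 0.52, and Cd79b, -0.63 ± 0.43 (edgeR adjusted p = 0.998 for both). For Cd37, Pot1a fl/fl 3, with 1195 CPM on 10 counts in 12 cells, stood above the 143 to 342 CPM of the other Pot1a fl/fl libraries and the 318 to 725 CPM of Pot1a wt/wt, and the ranges overlapped. Without this library the Cd37 estimate was -1.39, and it was -0.37 without Pot1a fl/fl 1 and -0.49 without Pot1a fl/fl 4. The Cd79b estimate came to -0.12 without Pot1a wt/wt 1. In the Igkc cluster, non-overlapping ranges were seen in 0.531% of genes in the lower and 0.93% in the higher direction.

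The interaction of cluster and genotype tested whether these differences themselves differed between the clusters. Of the 901 genes tested 0% were called (24 at an unadjusted p below 0.05; no other tool was run), and the 7 members tested were not called. Cd37 was furthest from 0, at 1.29 ± 0.65 on the log2 scale for the pro-B-like against the Igkc cluster (95% interval -0.07 to 2.64, edgeR adjusted p = 0.997), and at 0.72 without Pot1a fl/fl 4. Its counts in the pro-B-like cluster were 43 in Pot1a fl/fl and 36 in Pot1a wt/wt cells, and in the Igkc cluster 39 in Pot1a fl/fl and 102 in Pot1a wt/wt cells. These counts are pooled over 4 and 5 libraries. The mean levels were 268 ± 130 and 210 ± 178 CPM in the pro-B-like cluster, and 472 ± 489 and 545 ± 184 CPM in the Igkc cluster (SD, Pot1a fl/fl first). The other 6 estimates lay between -0.36 for Cd24a and 0.38 for Cd79b.

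Other genes of the pathway were read from 5 lists, which include the members. In whole marrow 0 genes of any list passed the test. The medians of the log2 fold changes were -0.15 for the receptor and co-receptors (6 of 10 genes tested), 0.39 for inhibitory receptors and phosphatases (6 of 10), 0.00 for kinases, adaptors and effectors (10 of 20), 0.56 for tetraspanins and anchored proteins (8 of 8) and -0.48 for Fc receptor-like and other surface proteins (3 of 12), against -0.00 over all genes tested. In B-lineage-like cells the medians were -0.23 (6 genes), -0.18 (2), -0.31 (4), -0.29 (3) and -0.34 (2), against -0.01 over all genes, and 0 genes passed. Besides Cd79b, the receptor gene with the smallest unadjusted p was Igkc, the kappa constant region, at 168 ± 109 CPM in Pot1a fl/fl and 309 ± 224 CPM in Pot1a wt/wt marrow (SD; log2 fold change -0.92 ± 0.53, edgeR adjusted p = 0.699). Igkc in B-lineage-like cells was at -0.72 ± 0.57 (edgeR adjusted p = 0.986). This estimate was -0.03 without Pot1a wt/wt 1, -0.39 without Pot1a fl/fl 2 and -1.11 without Pot1a fl/fl 3, and the whole-marrow one was -0.43 without Pot1a wt/wt 1.

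Of the other lists, Lair1, a collagen-binding inhibitory receptor of leukocytes, was at 40.8 ± 19.2 CPM in Pot1a fl/fl and 11.2 ± 17.2 CPM in Pot1a wt/wt marrow (log2 fold change 1.57 ± 0.63, edgeR adjusted p = 0.505). Ptpn6, which encodes SHP-1, was at 0.35 ± 0.23 in whole marrow and -0.37 ± 0.42 in B-lineage-like cells (edgeR adjusted p = 0.733 and 0.986). The exchange factor Vav1 was at 0.65 ± 0.35 and the adaptor Dok3 at 0.35 ± 0.31 in whole marrow (edgeR adjusted p = 0.668 and 0.854). In B-lineage-like cells, the kinase genes Btk (230 ± 49.9 CPM in Pot1a fl/fl, 337 ± 85.6 CPM in Pot1a wt/wt) and Syk were at -0.49 ± 0.30 and -0.42 ± 0.50 (edgeR adjusted p = 0.986 for both). Without Pot1a wt/wt 1 the Syk estimate came to -0.045, and it ran to -0.82 without Pot1a fl/fl 4. The Ptpn6 estimate in these cells ran between -0.77 without Pot1a fl/fl 2 and -0.14 without Pot1a fl/fl 1. The tetraspanins Tspan32 (0.93 ± 0.36) and Cd9 (1.23 ± 0.48) had edgeR adjusted p-values of 0.497 and 0.505 in whole marrow. The Cd9 estimate was 0.26 without Pot1a fl/fl 2 and -0.054 in female mice only. Il7r, the interleukin-7 receptor of B-cell precursors, was at -0.41 ± 0.26 in whole marrow and -0.33 ± 0.31 in B-lineage-like cells (edgeR adjusted p = 0.733 and 0.986).

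Ms4a1, which encodes the surface protein CD20, had the smallest unadjusted p of all 5 lists. Its whole-marrow levels were 27.9, 7.12, 41.9 and 10.4 CPM in Pot1a fl/fl, against 151, 52.2, 51.9, 92.1 and 97.7 CPM in Pot1a wt/wt. The groups did not overlap, as for 1.07% of genes tested in that direction. The log2 fold change was -2.13 ± 0.48 with an edgeR adjusted p of 0.269, and the gene passed the test only in some alternatives (DESeq2 adjusted p = 0.0262, and edgeR adjusted p = 4.23e-05 with no filter on low counts). Ms4a1 was counted in 2 to 5 cells per Pot1a fl/fl library and 5 to 12 per Pot1a wt/wt library. In Pot1a wt/wt 2 and 3 the cell with the most Ms4a1, 11 of 16 and 10 of 17 counts, had the same barcode in both and lay outside the B-lineage-like clusters. In Pot1a fl/fl 2 and 4 and in Pot1a wt/wt 2 no B-lineage-like cell had a count, and in Pot1a wt/wt 4 a single cell held 14 of 31 counts. With the top cell of each library left out, the levels were 8.65, 3.58, 34.7 and 2.62 CPM in Pot1a fl/fl and 104, 16.7, 21.8, 51.2 and 56.3 CPM in Pot1a wt/wt, and the ranges overlapped. The group means were 21.8 ± 16.2 CPM in Pot1a fl/fl and 89.0 ± 40.8 CPM in Pot1a wt/wt with all cells (SD, n = 4 and 5), a ratio of 0.245, and 12.4 ± 15.1 and 49.99 ± 34.9 CPM without the top cells, a ratio of 0.248.

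With Pot1a wt/wt 2 and 3 taken as 1 library, 0 members were called in whole marrow or in B-lineage-like cells. Cd79b was then at -0.94 in whole marrow and -0.68 in B-lineage-like cells on the log2 scale, and Cd24a at -0.49 and -0.29.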

How the data were processed

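Whole-marrow cells were profiled by Drop-seq in 9 libraries (4 Pot1a fl/fl, 5 Pot1a wt/wt, grouped by GEO's labels). The authors deposited whole-number counts per gene and barcode, not normalised, 100 barcodes a library. The submitters' processing notes name STAR and mm10, and the sources used here do not say whether molecules or reads were counted. The 8 members, the gene lists and the tests were chosen with earlier results of these data known.

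Cells with at least 200 counts and at most 25% mitochondrial counts were kept (899 of 900), and 39 cells marked by Scrublet as doublets stayed in the main analysis. Cells were integrated by anchors and clustered by Louvain (Seurat 5.3.0, 2000 variable genes without the members, 20 components, resolution 1). Clusters were named where at least 3 markers stood among the 50 leading genes. The test planned for the pre-B and immature B-cell stage was run on the larger B-lineage-like cluster, which was given no stage name.

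Per-library sums of counts entered the quasi-likelihood test of edgeR 4.0.16, after filterByExpr and TMM scaling, with Benjamini-Hochberg adjustment over all genes tested and a threshold of 0.05. DESeq2 1.42.0 and limma 3.58.1 served as alternatives, besides other normalisation, filters, clusterings, left-out libraries, sex as a factor, merged or de-duplicated shared cells and a replicate block. Single values were compared by exact permutation. Only the edgeR tests of whole marrow and of B-lineage-like cells were checked on simulated data, which gave all genes a common dispersion. The cluster and interaction tests were not checked in this way. All members were named, with the 3 genes most like each and, from each pathway list, those past the threshold or else the 2 with the smallest unadjusted p. Depth ran between 119459 and 465277 counts a library, and binomial intervals cover counting error only.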

Additional observations from a re-analysis of the deposited data

Results flagged for a closer look

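Within groups of libraries, 5 of 70 sets of values held a library far from the others, where chance flags about 1 in 20 groups. The sets were the members' CPM, the Cd79b share of the pair and the B-lineage-like share, and all 5 flags were CPM values. Of these, 4 came from Pot1a fl/fl 3 and share its cells. Its Cd79a level was 895 CPM in B-lineage-like cells (128 to 213 CPM in the other Pot1a fl/fl libraries), 942 CPM in the pro-B-like cluster (64.9 to 172 CPM) and 836 CPM in the Igkc cluster (159 to 258 CPM). Its Cd79b level in B-lineage-like cells was 105 CPM, against 322 to 363 CPM in the others. Cd22 reached 55.8 CPM in the whole marrow of Pot1a wt/wt 5, on 8 counts, against 20.8 to 30.5 CPM in the other Pot1a wt/wt libraries. Both libraries are the shallowest of their genotype, and the part of depth was not tested.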

How the results depend on the processing

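None of the 564 recomputed values of the members passed the threshold. The smallest p was 0.325, over adjusted p-values of edgeR, DESeq2 and limma fits and, for Cd22, unadjusted exact permutation p-values. In whole marrow 3 genes were called, against 69 with no filter on low counts, 1 with Pot1a wt/wt 2 and 3 as 1 library, 1 by limma, and 1 each without the shallow libraries and in female mice only (both chosen after seeing the data). Leaving out 1 library gave 1 to 3, with 1 without Pot1a fl/fl 2 or Pot1a wt/wt 1, 2, 3 or 5. The calls of 0 became 10 in B-lineage-like cells, 4 in the pro-B-like and 6 in the Igkc cluster with no filter, and 1 in B-lineage-like cells with the members in the clustering. They stayed at 0 to 0 with each library left out, in these cell sets and for the interaction. Deviations of same-numbered libraries from their group means correlated at -0.16 to 0.01, and those of differently numbered ones at -0.20 to 0.20. With so few libraries these values cannot decide whether the numbers pair them. The replicate block gave 2 calls in whole marrow, 0 in B-lineage-like cells, 3 in the pro-B-like cluster and 0 in the Igkc cluster, and a share difference of -2.82 points. The B-lineage-like share difference ran between -6.25 and 0.0788 points with a library left out.

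Some estimates turned sign, and the cause was not tested. In whole marrow, Cd37 was 0.017 with the replicate block and Cd9 -0.054 in female mice. In B-lineage-like cells with Pot1a wt/wt 2 and 3 as 1 library, Cd79a was -0.0026, Cd72 -0.12 and the Cd22 difference 2.94 CPM. With sex as a factor Cd79a was -0.056 and Cd72 -0.12. Without the shallow libraries Cd79a was -0.51 and Cd72 -0.050. In female mice Cd72 was -0.23, Il7r 0.12 and the Cd22 difference 34.6 CPM. With limma Blnk was 0.28 and Il7r 0.035, and with cells assigned on their own Blnk was 0.024 and Igkc 0.087. The Cd22 difference was 0.298 CPM at resolution 1.5 and 3.34 CPM with the members in the clustering. In the Igkc cluster, Cd79a was 0.11 at resolution 0.6, Cd72 was 0.019 at resolution 1.5, 0.16 with the members in the clustering and 0.048 with at least 10 cells per library, and Blnk was 0.047 with Pot1a wt/wt 2 and 3 as 1 library, 0.019 by DESeq2, 0.037 at resolution 1.5 and 0.051 with the members in the clustering. The interaction of Blnk was 0.038 with no filter.

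With a library left out, whole-marrow estimates that turned sign ran between -0.64 and 0.15 for Cd79a, -0.23 and 0.45 for Cd72, -0.17 and 0.25 for Cd37, -0.44 and 0.19 for Blnk, and -12.1 and 2.32 CPM for Cd22. In B-lineage-like cells they ran between -0.58 and 0.37 for Cd79a, -0.20 and 0.47 for Cd72, -0.40 and 0.19 for Blnk, and -21.4 and 24.9 CPM for Cd22. In the Igkc cluster they ran between -0.57 and 0.16 for Cd79a, -0.30 and 0.48 for Cd72, and -0.47 and 0.21 for Blnk. Those of Cd79a rest on 6 of 9 fits, as do those of Lair1 in whole marrow, because the gene passed the filter in only those fits. For the interaction they ran between -0.054 and 0.33 for Cd79a, -0.085 and 0.83 for Cd72, -0.40 and 0.72 for Fcrla, and -0.27 and 0.52 for Blnk. The pro-B-like fit with at least 10 cells per library could not be fitted, and the interaction took no block by number because library is its block. Counts below about 10 per library limit Cd22, and the 5 to 13 pro-B-like cells per library limit the other members there.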
